A study of Mus musculus with 2 samples.

Results

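Hnf4a, Foxa1, Foxa2, Foxa3, Gata4, Gata6 and Onecut1 encode transcription factors of the endoderm, the liver and the pancreas. These 7 genes are among 22367 protein-coding genes in the annotation (GENCODE M1, mm9). They were chosen by name for what they encode, with earlier results of these data known. Peaks of a 3HA-Rfx6 ChIP-seq experiment were counted for a gene when the summit fell inside it or no more than 50 kb from it. Of the 7 genes, 6 had at least 1 such peak, with 15 peaks between them, and Gata6 had 0. Of all protein-coding genes, 67.8% met the same rule.

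Rfx6 binding was mapped in Min6b1 cells, an insulin-secreting mouse β cell line. The labelled 3HA-Rfx6 group received 24 µg of pCMV-Tag2A-3HA-Rfx6 plasmid and was harvested 2 days later for ChIP with the anti-HA antibody 12CA5, and the control group, labelled Min6b1 cells, went through the same ChIP. Both were grown with 25 mM glucose, and the growth text that describes the transfection stands on both labels. There was 1 library per group, so no value below has a replicate error, and the control entered only through the peak calling. The tagged protein came from a transfected plasmid in cells of a β cell line, and its amount relative to endogenous Rfx6 was not measured in these files. The peak list holds no expression values, so the cell line could not be checked against its marker genes, nor could expression of the 7 factors. The 3HA-Rfx6 library kept 33949757 reads and the control kept 3567375 after duplicates at 1 position were removed, and 23308 peaks were listed.

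HNF4A is a nuclear receptor, and human mutations in its gene cause a monogenic, early-onset form of diabetes. FOXA1, FOXA2 and FOXA3 are forkhead proteins that can bind their sites in closed chromatin, and FOXA1 and FOXA2 act together in the growth of the pancreas. GATA4 and GATA6 are zinc finger proteins of early pancreatic progenitors, and mutations of GATA6 are a cause of pancreatic agenesis. ONECUT1, also called HNF6, is a cut-homeodomain protein that acts ahead of the proendocrine factor Ngn3, in turn an activator of Rfx6. Rfx proteins recognise the X-box, an inverted repeat whose arms are separated by a few bases.

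The sequences under the peaks show the best partial match to an X-box around each summit. They are from the mm9 genome on the strand of the gene, and capitals mark the stretch that best matched GTTGCC and GGCAAC separated by 0 to 3 bases, which reads the same on both strands. Peaks are numbered within a gene in the direction of its transcription. Of the following 200 bp around summits, the first is the peak with the most reads of the 15, at chr2:163412245-163412444. The next, at chr2:147819100-147819299, holds an exact HNF4 motif. Then come the second highest peak, at chr14:63916372-63916571, and a peak of Onecut1 with an exact X-box arm, at chr9:74749727-74749926.
Hnf4a 2: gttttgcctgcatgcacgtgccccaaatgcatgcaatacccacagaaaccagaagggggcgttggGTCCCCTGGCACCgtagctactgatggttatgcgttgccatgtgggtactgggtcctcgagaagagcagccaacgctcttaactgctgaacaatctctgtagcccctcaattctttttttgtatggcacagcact
Foxa2 3: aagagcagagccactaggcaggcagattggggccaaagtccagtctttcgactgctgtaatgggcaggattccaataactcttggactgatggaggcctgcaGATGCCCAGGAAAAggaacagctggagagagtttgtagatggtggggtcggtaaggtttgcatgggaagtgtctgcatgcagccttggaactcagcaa
Gata4 2: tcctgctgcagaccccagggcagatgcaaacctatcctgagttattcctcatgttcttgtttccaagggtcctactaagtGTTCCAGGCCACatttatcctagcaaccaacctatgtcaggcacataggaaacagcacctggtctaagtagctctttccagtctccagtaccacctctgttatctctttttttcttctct
Onecut1 2: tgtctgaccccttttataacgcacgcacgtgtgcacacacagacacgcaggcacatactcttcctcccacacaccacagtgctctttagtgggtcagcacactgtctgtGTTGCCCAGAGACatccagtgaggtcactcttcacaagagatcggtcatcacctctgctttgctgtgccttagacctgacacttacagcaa
At Foxa1, the 131 bases from the start codon to the end of the window, at chr12:58646592-58646722, run through the coding part of exon 1 into intron 1.
Foxa1 1: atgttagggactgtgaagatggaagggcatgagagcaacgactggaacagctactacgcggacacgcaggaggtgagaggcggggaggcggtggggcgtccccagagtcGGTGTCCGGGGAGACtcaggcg

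The best match had 9 of the 12 letters in 8 of the 15 peaks, 8 letters in 6 and 7 letters in 1. At least 10 letters were matched in 0 of the 15 (95% Wilson interval 0 to 20.4%). The shares were 19.8% in all peaks and 2.15% in windows 1 kb to the right of the summits, and the interval includes both. At least 8 letters were matched in 96.5% of all peaks and in 75.4% of those windows, so an 8-letter match is common away from summits. At least 9 letters were matched in 53.3% of the 15 peaks (95% Wilson interval 30.1 to 75.2%), in 58.7% of all peaks (58.1 to 59.3%) and in 20.2% of windows 1 kb to the right of the summits (19.7 to 20.7%). The interval of the 15 peaks includes the share of all peaks. In the central 100 bp the share of the 15 peaks was again 53.3% and that of all peaks 41.9%, so the 15 peaks lie under all peaks at 200 bp and over them at 100 bp, in both cases within the interval. Wilson intervals cover counting error only, and sites of 1 library are not replicates. In the 8 peaks with 9 letters, where the most central of equal matches was taken, the match lay 0 to 30 bp from the summit. Of those not shown above, 3 sites are given here with 7 bases on each side, first Hnf4a 3, then Foxa2 1 and Foxa3 1.
Hnf4a 3: ggcacagGCTGCCAGGTAATagcccag
Foxa2 1: ggtccctGTCTCCGGGAAACactccca
Foxa3 1: agaggcgGTAACCATAGCAACccagcaa
They lie at chr2:163447603-163447615, chr2:147879269-147879281 and chr7:19576042-19576055. The Foxa3 site ends in GCAAC, which is 5 of the 6 letters of the right arm, and it covers the summit.

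**Figure D1:**
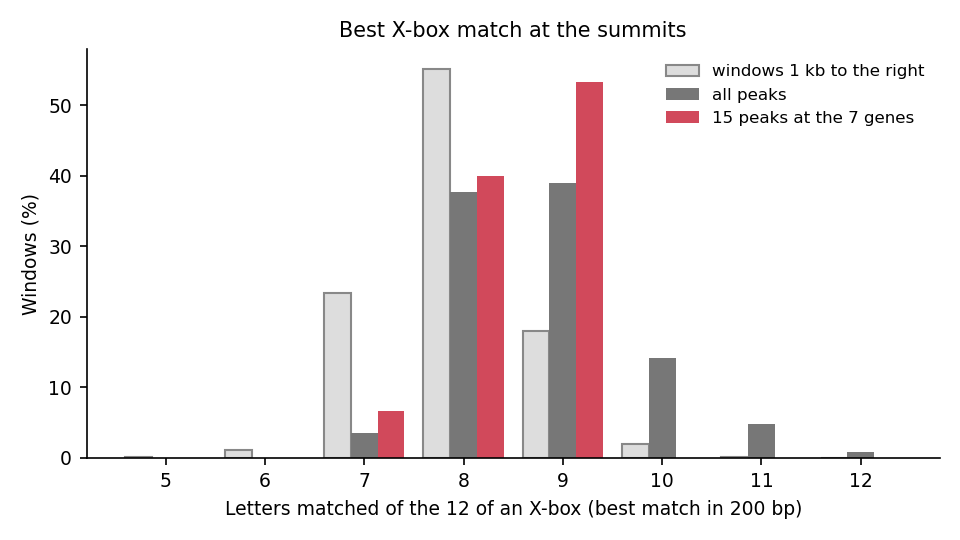
Share of windows (y axis, %) by the number of the 12 X-box letters in the best match within 200 bp (x axis), for the 15 peaks at the 7 genes, all 23308 peaks and windows 1 kb to the right of each summit. The 15 peaks stop at 9 letters, whereas 19.8% of all peaks have 10 or more. Windows with fewer than 5 letters are not drawn.

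An exact X-box arm (GTTGCC, or GGCAAC on the other strand) was found in 3 of the 15 windows (20%), in 26.8% of those of all peaks and in 6.39% of the shifted ones. In Hnf4a 2 it was not part of the capitalised match: the letters gttgcc cover positions 163412343 to 163412348 of chromosome 2, and the summit at 163412345 lies in them. In Onecut1 2 the arm was 9 bp from it.

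Each motif of the factors themselves was in 0 or 1 of these windows. A forkhead motif (TGTTTAC, either strand) was in 0 of the 15 and in 2.45% of all peaks, and an Onecut motif (ATTGAT) in 0 and in 3.10%. A GATA motif (AGATAA) was in 1, Gata4 2, 80 bp from the summit, and in 5.73% of all peaks. An HNF4 motif (CAAAGTCCA) was in 1, Foxa2 3, 58 bp from the summit, and in 0.180% of all peaks. Motifs of other factors were searched too. A CRE (TGACGTCA) was in 1, Foxa3 1, 53 bp from the summit, and in 0.287% of all peaks. The E-box CAGATG was in 3 and in 16.1% of all peaks, and the NRF1 motif GCATGCGC was in 0 and in 0.420%. In Foxa2 3 the E-box, 1 bp from the summit, overlaps the capitalised X-box match. A match describes the sequence and not the binding of a factor.

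The 15 peaks lay mostly outside the genes, as did most of the sequence searched. The search took 50 kb on each side of genes that were 4.09 to 72.8 kb long. For the counts by side, between genes and by nearest start, a share over all peaks is not given. Relative to the direction of transcription, 6 summits were upstream of the gene, 7 were downstream and 2 were inside, and 11 of the 15 lay between protein-coding genes. By start, 9 of the 15 were nearest to a start of the gene they were counted for, and 6 were nearer to the start of another gene. Within 1 kb of a start of their own gene there was 1 peak, at Foxa1, so 1 of the 7 genes had a promoter peak, and 22.6% of all protein-coding genes did. With 7 genes, a count of 1 is near that share. Within 5 kb of a start, 3 of the 7 genes had a peak (Foxa1, Foxa2 and Gata4), and 31.0% of all genes did, so the 7 genes lie under the share of all genes at 1 kb and over it at 5 kb. Foxa1 was also the 1 gene of the 7 with a promoter peak at a fold enrichment of at least 10, against 9.87% of all genes. The same held in the higher-scoring 50% of peaks, against 13.3%. A count of 1 of 7 is near those shares too. At each of these promoter settings, 1 gene more or fewer would turn the direction against all genes. With a distance of 10 kb from the gene, 3 of the 7 genes had a summit against 47.1% of all genes. With 100 kb, 7 of 7 had one against 76.7%. Among peaks with a fold enrichment of at least 10, 3 of the 7 genes had a summit within 50 kb against 45.6% of all genes. In the 50% of peaks with the highest scores, 2 of the 7 had one against 51.1%, and with an FDR of at most 1% 0 had one against 0.125%. Among the 15 peaks the FDR rose with the score, except at Hnf4a 2, so a lower FDR does not mark a stronger peak. It was 1.8% at Hnf4a 3, with a score of 52.9, and 3.77% at Foxa1 1, with a score of 215. At Hnf4a 2, with a score of 609, it was 3.49%.

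**Figure D2:**
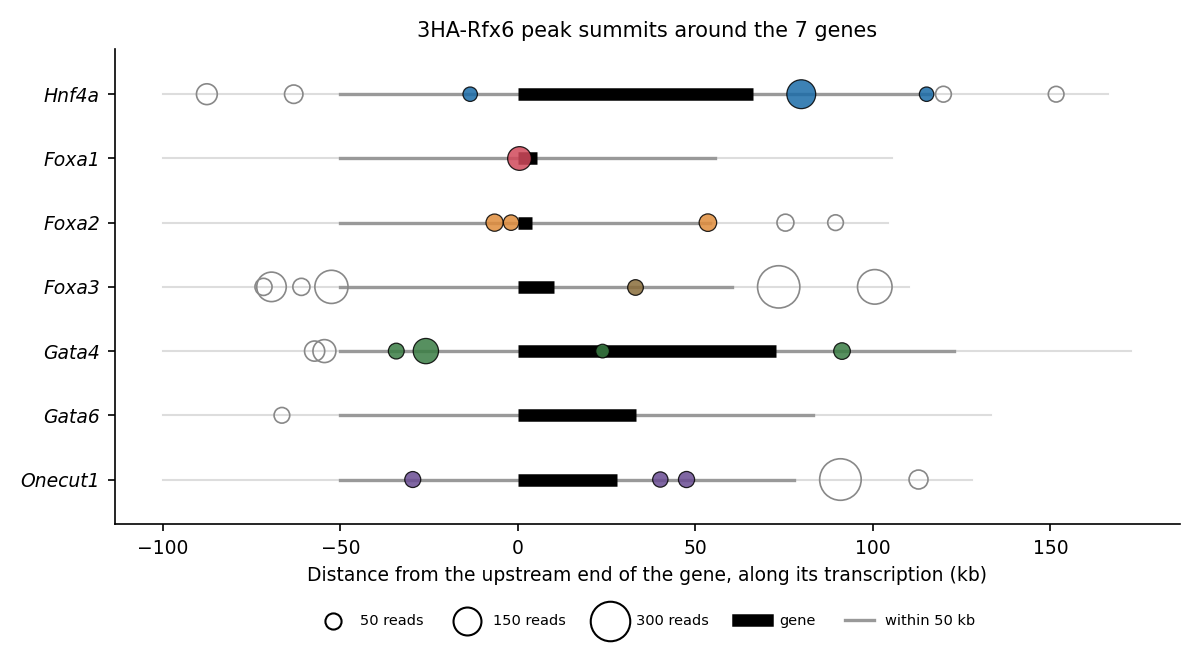
Position of 3HA-Rfx6 summits around the 7 genes (x axis, kb from the upstream end of the gene, in the direction of transcription). Black bars are genes, grey lines reach 50 kb and pale lines 100 kb on each side, filled circles are the 15 peaks and open circles the 17 summits from 50 to 100 kb, with area in proportion to reads. Foxa1 has its peak at the start of the gene, and Gata6 has none within 50 kb.

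By number of peaks, Gata4 had 4, Hnf4a, Foxa2 and Onecut1 had 3 each, Foxa1 and Foxa3 had 1 each, and Gata6 had 0. Of all protein-coding genes, 25.8% had at least 4, 35.8% had at least 3 and 67.8% had at least 1. The median was 3 for the 7 genes and 1 for all genes, while the means were 2.14 and 2.42, so the direction of the difference depends on the measure. The windows of the 7 genes were 104 to 173 kb long, with a median of 115 kb for all genes.

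**Figure D3:**
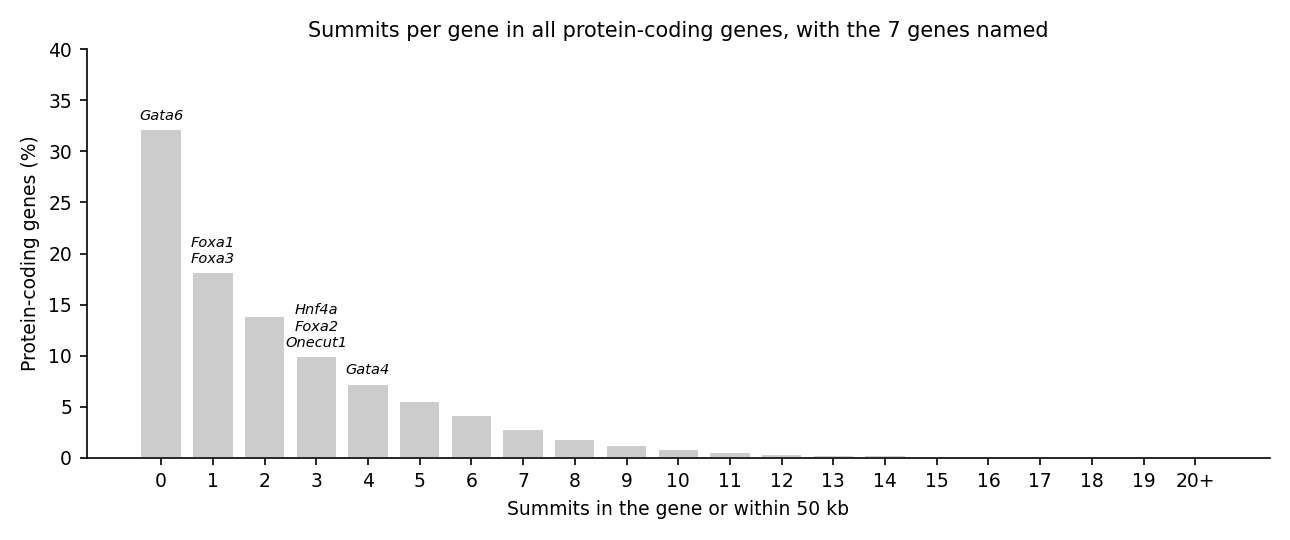
Share of the 22367 protein-coding genes (y axis, %) by the number of summits in the gene or within 50 kb (x axis; genes with 20 or more are pooled), with the 7 genes named above their bar. They fall on the bars from 0 to 4 summits.

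By reads, the 15 peaks were mostly low. Their reads ranged from 36 to 160 with a median of 49, against a median of 73 for all peaks, and 12 of the 15 were at or under that median. Fold enrichment over the background ranged from 4.47 to 15.3 with a median of 6.12, against 8.54 for all peaks. The score, minus 10 times log10 of the p-value of the peak caller, had a median of 76.6 against 149, and 2 of the 15, at Hnf4a and Foxa1, were above it. Peak lengths ranged from 859 to 2011 bp with a median of 1062 bp, against 1196 bp for all peaks, and reads per kb had a median of 44.6 against 58.5. On each of these measures the median of the 15 was the lower one. The FDR had a lower median too, 2.18% against 3.06%, which is nominally the better value. Among the 15, however, the lower FDRs went with the lower scores.

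The highest peak held 160 reads at Hnf4a (95% exact Poisson interval 136 to 187), 123 at Gata4 (102 to 147) and 108 at Foxa1 (88.6 to 130). It held 59 at Foxa2 (44.9 to 76.1), 50 at Onecut1 (37.1 to 65.9) and 47 at Foxa3 (34.5 to 62.5). In this order the intervals of neighbours overlap, except between Foxa1 and Foxa2. The intervals cover counting error only. Among the 15176 protein-coding genes with a peak, the median of the highest peak was 116 reads, and among the 6 genes here it was 83.5. Of all protein-coding genes, 22.5% had a highest peak of at least 160 reads, 31.8% of at least 123 and 37.2% of at least 108. For at least 59, 50 and 47 reads the shares were 57.0%, 61.7% and 63.2%. These shares include genes without a peak in the denominator.

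**Figure D4:**
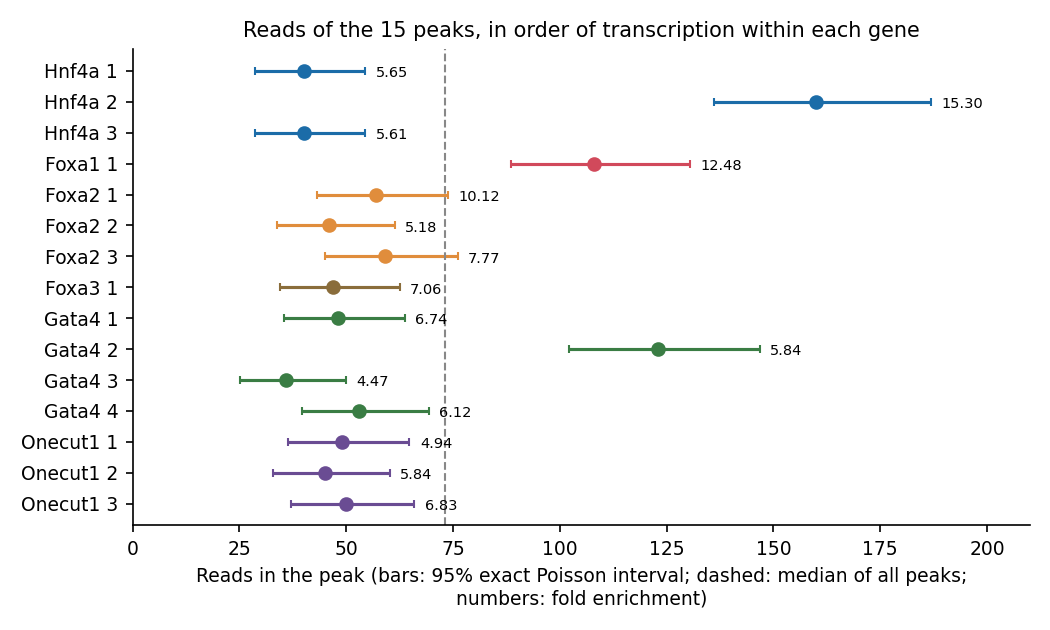
Reads in each of the 15 peaks (x axis) with 95% exact Poisson intervals, numbered within each gene in the direction of transcription. The numbers beside the bars are fold enrichments, and the dashed line is the median of all peaks, 73 reads. Hnf4a 2, Gata4 2 and Foxa1 1 lie above the line with their whole interval.

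Hnf4a (ENSMUSG00000017950.9) is at chr2:163332544-163398646 on the plus strand. It has a far upstream promoter used in islets and a downstream promoter used in the liver. Peak Hnf4a 2, at chr2:163411699-163413384, held 160 reads, which put it among the top 13.5% of all peaks, and was enriched 15.3-fold (score 609, FDR 3.49%). Its summit lay in intergenic sequence 13.7 kb past the 3′ end of Hnf4a. The nearest start was that of Ttpal, 15.7 kb away, and the nearest start of Hnf4a, that of Hnf4a-004, was 36.5 kb away. Peak Hnf4a 1 held 40 reads, was enriched 5.65-fold, and was 13.5 kb upstream of the most upstream start. It lay in intron 1 of R3hdml, 1.03 kb from its start. Peak Hnf4a 3 held 40 reads, was enriched 5.61-fold, and was 49.0 kb past the gene, with a start of Ttpal nearest to it at 19.3 kb. Inside the 66.1 kb of Hnf4a itself there were 0 summits, and 0 lay within 1 kb of any of its protein-coding starts.

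Foxa1 (ENSMUSG00000035451.6) is at chr12:58641618-58647108 on the minus strand. Its peak, at chr12:58646310-58648320, held 108 reads and was enriched 12.5-fold (score 215, FDR 3.77%). It reached from 798 bp after the start of the gene to 1212 bp before it. The summit, at 58646692, was 416 bp after the start, at base 31 of the 72 coding bases in exon 1 of its annotated transcript. By reads it was among the top 28.2% of all peaks and among the top 35.0% of those within 1 kb of a protein-coding start. The summit lay at 19.0% of the length of the peak, counted from the end inside the gene. The window had a GC content of 67.0% and 18 CpG, against medians of 54.0% and 3 over all peaks and a median GC content of 64.5% over peaks near starts. Its best X-box match had 8 letters and was 79 bp from the summit, in intron 1. The nearest other summit on the chromosome was 314 kb away, and 1.95% of all peaks were as far from their nearest neighbour.

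Foxa2 (ENSMUSG00000037025.5) is at chr2:147868613-147872705 on the minus strand, with 0 other protein-coding genes within 50 kb. Each of its 3 peaks was nearest to a start of Foxa2. Peak Foxa2 1 was 6.58 kb upstream of the gene and held 57 reads (10.1-fold enriched). Peak Foxa2 2, 1.94 kb upstream, held 46 reads (5.18-fold enriched). Its window had 13 CpG and a GC content of 63.0%. The remaining one, Foxa2 3, was 49.4 kb past the gene and held 59 reads (7.77-fold enriched). By reads the 3 cannot be separated, since their Poisson intervals overlap.

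Foxa3 (ENSMUSG00000040891.5) is at chr7:19598631-19608887 on the minus strand, among 7 other protein-coding genes within 50 kb. Its peak held 47 reads, was enriched 7.06-fold, and had its summit 22.6 kb past the 3′ end of Foxa3. The summit lay in a noncoding part of the 1 exon of Gm10676, and the nearest start was that of Mypop, 545 bp away. Within 50 kb of Foxa3, 0 summits were nearer to its start than to that of another gene.

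Gata4 (ENSMUSG00000021944.8) is at chr14:63817759-63890529 on the minus strand. Peak Gata4 2, at chr14:63915547-63917150, was 25.9 kb upstream of the most upstream start and held 123 reads. Its fold enrichment was 5.84, so it had the second most reads of the 15 but a fold enrichment under their median. Its window had 0 CpG and a GC content of 46.5%. Peak Gata4 1 was 8.33 kb farther upstream and held 48 reads (6.74-fold enriched). Peak Gata4 3 held 36 reads, the fewest of the 15, and lay in intron 1 of Gata4-004, Gata4-005 and Gata4-006, 2.59 kb upstream of the start of Gata4-002. It was enriched 4.47-fold. Peak Gata4 4, 18.5 kb past the gene, held 53 reads (6.12-fold enriched) and was nearest to the start of Fdft1, 2.62 kb away.

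Onecut1 (ENSMUSG00000043013.7) is at chr9:74709728-74737591 on the plus strand, with 0 other protein-coding genes within 50 kb. Its 3 peaks held 49, 45 and 50 reads, with fold enrichments of 4.94, 5.84 and 6.83. Peak Onecut1 1 was 29.6 kb upstream of the gene, and Onecut1 2 and Onecut1 3 were 12.2 and 19.6 kb past its 3′ end. Onecut1 3 was nearest to the start of BC031353, 43.5 kb away. The reads of the 3 peaks differed by less than their counting error.

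**Figure D5:**
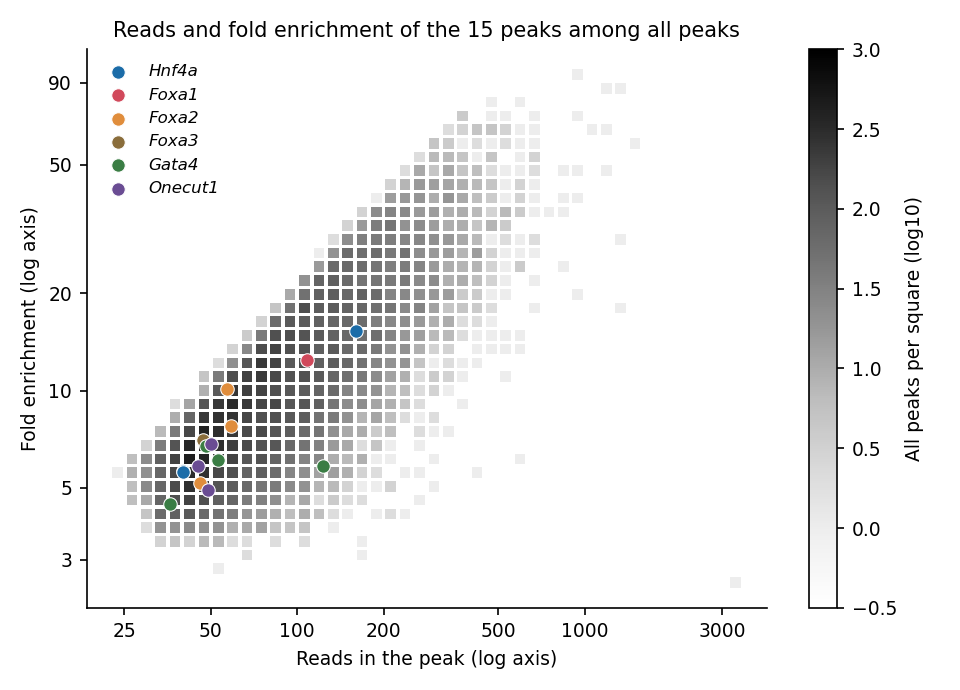
Fold enrichment (y axis, log) against reads (x axis, log) of the 15 peaks, coloured by gene, over the density of all 23308 peaks in grey. Most of the 15 lie in the lower left of the distribution; Gata4 2 lies low for its 123 reads, and Hnf4a 1 and 3 nearly coincide.

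Gata6 (ENSMUSG00000005836.8) is at chr18:11052508-11085633 on the plus strand. It had 0 summits within 50 kb, as did 32.2% of all protein-coding genes. The nearest lay 66.5 kb upstream and held 47 reads (7.30-fold enriched). The nearest on the downstream side was 425 kb away and held 58 reads (8.94-fold enriched). The stretch without a summit around the gene was 525 kb long, and 35.1% of the genes without a summit inside had one at least as long, with a median of 252 kb. It had 0 other protein-coding genes within 50 kb. The peak list holds regions past a p-value of 1e-05, and the fewest reads of a listed peak were 24, so weaker binding was not detectable at this depth.

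The distance of 50 kb decided some of these counts. Just inside it were Hnf4a 3 at 49.0 kb and Foxa2 3 at 49.4 kb, with 40 and 59 reads. Just outside it was a peak of 211 reads (19.8-fold enriched) 52.5 kb upstream of Foxa3 and 173 bp from the start of Dmwd. Peaks of 48 and 101 reads lay 53.7 kb downstream of Hnf4a and 54.5 kb upstream of Gata4. From 50 to 100 kb there were 17 summits, with a median of 69 reads. Of these, 4 held over 200 reads, and 0 of the 4 were nearest to a start of the 7 genes. The highest, with 343 reads (51.3-fold enriched), was 63.2 kb past the end of Foxa3 and nearest to a start of Nova2. Another, with 331 reads (37.2-fold enriched), was 63.0 kb past the end of Onecut1 and 135 bp from the start of BC031353. Dmwd and Nova2 were named here after their values were seen.

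Related factors were described by the same rule. The 9 genes were Hnf4g, Onecut2, Onecut3, Gata1, Gata2, Gata3, Gata5 and the GATA cofactors Zfpm1 and Zfpm2. Of these, 7 had a summit within 50 kb (67.8% of all protein-coding genes) and 2 had a promoter peak (22.6%), at Onecut2 and Gata3. Their median was 3 summits per gene, equal to that of the 7 genes, and the values ranged from 0 to 16. Zfpm1 had 16, which 0.407% of all protein-coding genes reached, with a highest peak of 438 reads. Gata2, a factor of blood stem cells, had 10 with a highest peak of 169 reads, and Gata5 had 8 with a highest peak of 424. Onecut3 had 5, Onecut2 had 3, Gata3 had 2, Gata1 had 1, and Hnf4g and Zfpm2 had 0. Nearest to a start of the gene itself were 3 of the 16 at Zfpm1, 4 of the 10 at Gata2 and 4 of the 8 at Gata5. At Onecut3 it was 2 of 5, at Onecut2 3 of 3, at Gata3 2 of 2 and at Gata1 0 of 1. These are counts in 1 library, and their differences from the 7 genes were not tested.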

How the data were processed

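ChIP-seq was performed with the anti-HA antibody in 1 library of 3HA-Rfx6 transfected Min6b1 cells and 1 library of Min6b1 cells. Per the labels, CASAVA 1.8.2, Bowtie (version not given in the sources used here) and MACS 1.4.2 were used with the mm9 build. Per the file headers, the authors called peaks against the control with a p-value cutoff of 1e-05 and at most 1 read per position, and scaled the smaller dataset. The libraries held 49443917 and 16911298 reads, of which 68.7% and 21.1% were kept. The effect of the shallower control was not tested.

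The deposited values of a peak are the read count, without normalization, the fold enrichment over the background, which is a ratio, a score, 10 times the −log10 of the p-value, and the FDR as a percent. A summit is the peak start plus the summit offset minus 1. Summits were compared with protein-coding genes of GENCODE M1 (NCBIM37, mm9), without chromosome M, using Python 3.11.15, numpy 2.4.6, pandas 2.3.3 and scipy 1.17.1. The 200 bp around each summit were searched for motifs. No test was run, because there was 1 library per group. The gene assignment and the motif search were tested on simulated data.

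The 7 genes and the related genes were chosen with earlier results of these data known. The genes named are these, the genes that hold a summit counted here or whose start is nearer to it, and 2 named later. Some related genes and a sequence are not reported here. The alternatives were other distances, starts in place of genes, nearest starts, peak intervals, smaller peak sets, a wider promoter, and other motif settings and rankings.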

Additional observations from a re-analysis of the deposited data

How the results depend on the processing

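The counts depended on the distance and on the peak set. The number of the 7 genes with a peak was 6, against 67.8% of all genes. It became 3 within 10 kb (47.1% of all genes) and 3 with a fold enrichment of at least 10 (45.6%). In the 50% of peaks with the highest scores it was 2 (51.1%). With an FDR of at most 1%, which left 10 peaks in all, it was 0 (0.125%). Among the 15 peaks the FDR rises with the score, except at Hnf4a 2, so this cutoff does not select the higher scores. The number of genes was 5 within 20 kb (55.2% of all genes), 7 within 100 kb (76.7%) and 6 within 50 kb of a start (63.6%). With any part of the peak within 50 kb it was 6 (68.0%). When the nearest start had to be that of the gene it was 4, and a share over all genes is not given. The number of peaks was 15, and became 4 within 10 kb, 9 within 20 kb, 32 within 100 kb, 9 when the nearest start had to be that of the gene, 3 with a fold enrichment of at least 10, 2 in the higher-scoring 50% and 0 with an FDR of at most 1%. It was 13 within 50 kb of a start and 15 with any part of the peak. The number of genes with a promoter peak was 1, and became 3 with 5 kb, where Foxa2 and Gata4 joined Foxa1. The share over all genes was 22.6% at 1 kb and 31.0% at 5 kb. The 7 genes lie under the first and over the second, and 1 gene more or fewer would turn either direction. The share of the 15 peaks with an X-box match was 53.3% (58.7% of all peaks). It became 0% with 10 letters (19.8%), 93.3% with 8 letters (96.5%) and 20% with 1 exact arm (26.8%). In windows 1 kb to the right of the summits, the share was 20.2% with 9 letters, 2.15% with 10 and 75.4% with 8. In 100 bp the share of the 15 peaks stayed at 53.3% against 41.9% of all peaks, which turns the direction. These alternatives differ from the reported values by fewer or more peaks, bases or letters allowed, by construction. By fold enrichment, 4 of the 6 genes had the same highest peak as by reads, Foxa2 and Gata4 being the exceptions, and by score 6 had.

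No paired analysis was possible because each group had 1 library, which also leaves no replicate to omit. Peaks under the cutoff of the peak caller are not listed, and no value has an error from replicates.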
